A study of Homo sapiens with 10 samples.

Results

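Interleukin 11 (IL11) and leukemia inhibitory factor (LIF) are secreted cytokines of the gp130 family. They were followed here together with 6 receptor and signaling genes of the same family's pathway. These were IL6ST, which encodes the shared receptor chain gp130, the receptor genes IL11RA, LIFR and OSMR, the feedback inhibitor gene SOCS3 and the transcription factor gene STAT3. The 8 genes were taken by symbol from 58395 genes in the count files, and all 8 were among the 16905 genes kept by a filter on low counts. IL11 and LIF were chosen by their measured values in these libraries, the rise of IL11 with siGGGGGC at 24 h among them. Their levels and fold changes are therefore a description with no p-value. The other 6 genes were treated as listed for their place in the pathway and were tested, but they were chosen with earlier results of these data known, so their p-values are not independent of that choice.

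HeyA8, a human cell line from an ovarian cancer, was transfected with 10 nM of a small interfering RNA (siRNA) duplex. Duplexes were named after their 6mer seed, positions 2 to 7 of the guide strand, through which a guide pairs with the 3′UTR of mRNAs. The 5 groups of 2 libraries were siNT1 at 24 h, siGGGGGC at 24 h, siNT1 at 48 h, siGGCAGU at 48 h and siGGGGGC at 48 h, where siNT1 is the nontargeting control. All cells, controls included, therefore carried a duplex, and the passenger strand was chemically modified. By the study's methods, wells kept until 48 h received fresh medium at 24 h. In siNT1 cells, a difference between 48 h and 24 h therefore cannot be told apart from an effect of that medium change. The study used siGGGGGC and siGGCAGU as duplexes that are toxic to these cells. Both libraries of a group were wells of a transfection of a single cell line, so p-values measure the spread between wells and libraries. In bulk RNA, a change in the share of cells that express a gene and a change in RNA per cell cannot be told apart.

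Cytokines of this family signal through receptor complexes that contain gp130. IL11 binds IL11RA and then recruits gp130, LIF binds LIFR, which pairs with gp130, and OSMR pairs with gp130 to receive oncostatin M. The complexes activate JAK kinases and STAT3, and STAT3 in turn induces SOCS3, which binds gp130 and shuts the signal down. In ovarian and other carcinomas, tumor cells and stroma both secrete these cytokines.

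On hg38 the ligand genes were IL11 (ENSG00000095752, chr19:55364382-55370463, minus strand) and LIF (ENSG00000128342, chr22:30240453-30246759, minus strand). The receptor genes were IL6ST (ENSG00000134352, chr5:55935095-55995022, minus strand), IL11RA (ENSG00000137070, chr9:34652162-34661902, plus strand), LIFR (ENSG00000113594, chr5:38474668-38608354, minus strand) and OSMR (ENSG00000145623, chr5:38845858-38945596, plus strand). The signaling genes were SOCS3 (ENSG00000184557, chr17:78356778-78360077, minus strand) and STAT3 (ENSG00000168610, chr17:42313324-42388540, minus strand). LIF shares 86 and 83 exon bases with the antisense genes LIF-AS1 and LIF-AS2, which had at most 11 and 8 counts per library.

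The seeds define the duplexes, so the miRNAs that share them are shown first, with the miRNA seed (positions 2 to 8) in capitals. The sequences are from RefSeq (GRCh38.p14). The first pair shares GGCAGUG and the second pair shares GGGGGCG.
hsa-miR-34a-5p: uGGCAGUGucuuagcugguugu
hsa-miR-449a: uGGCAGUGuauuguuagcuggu
hsa-miR-1237-5p: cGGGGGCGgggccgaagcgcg
hsa-miR-4488: aGGGGGCGggcuccggcg

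A 3′UTR word that pairs with the 6mer seed is GCCCCC for siGGGGGC and ACTGCC for siGGCAGU. Over 19608 genes with an annotated 3′UTR, 29.7% held GCCCCC and 32.2% held ACTGCC in their longest 3′UTR. Among the 8 genes, 2 held GCCCCC and 3 held ACTGCC. LIF held both words, SOCS3 held ACTGCC, and STAT3 held both at overlapping positions, whereas the 3′UTRs of IL11, IL6ST, IL11RA, LIFR and OSMR held neither. The 6 sites below are shown because such sites tell apart genes that the guides could pair with from genes that they could not pair with through these words. Each line gives 30 bases of the sense strand (hg38, minus strand, within the 3′UTR), with the word in capitals.
LIF, chr22:30243249-30243278: gggagtggaccaGCCCCCagcaaattatca
LIF, chr22:30242141-30242170: ggcagatattgtGCCCCCtggagcagtggg
SOCS3, chr17:78358057-78358086: gaactaatgagaACTGCCagggaatcttca
SOCS3, chr17:78357290-78357319: ccaccaggtcccACTGCCccgagccctgca
STAT3, chr17:42313537-42313566: ttcctgtccactGCCCCCtccccatcccca
STAT3, chr17:42313540-42313569: cgcttcctgtccACTGCCccctccccatcc

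Promoters were searched on both strands for the AP-1 word TGANTCA, since FOS and JUNB, genes of AP-1 subunits, moved in these libraries, and for the STAT word TTCNNNGAA. RefSeq promoter windows covered 250 bases before to 50 bases after a start site, and 7 of the 8 genes had an entry. LIF had none, so its promoter was not searched. LIFR had 3 promoters, IL11RA and SOCS3 had 2 each, and IL11, IL6ST, OSMR and STAT3 had 1 each. TGANTCA was found in 7.71% and TTCNNNGAA in 7.66% of 35116 promoters. IL11 and OSMR each held 1 AP-1 word, and 2 of 3 LIFR promoters held a STAT word. No searched promoter of these genes held both words, and a match is a description of the letters. The windows are GRCh38.p14, on the minus strand for IL11 and LIFR and on the plus strand for OSMR, with the word in capitals.
IL11, AP-1, chr19:55370541-55370570: ggcagggagggTGAGTCAggatgtgtcagg
OSMR, AP-1, chr5:38846004-38846033: tgccccgcagcTGATTCAtagccccggccc
LIFR, STAT, chr5:38595552-38595581: cccattactagTTCCTTGAAccacaatcca
LIFR, STAT, chr5:38557631-38557660: tgctttggagtTTCATCGAAaggtctttaa

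Total counts per library were between 19781445 and 42428986, and the small RNA genes RN7SL2 and SNORD3A took 19.83% to 31.96% of them. Levels are CPM, counts per 1000000 counts of a library size scaled by TMM. Of 5 epithelial markers 4 were tested, at a summed level of 171 to 696 CPM, and 4 of 4 mesenchymal markers summed to 968 to 2380 CPM. The epithelial sum came mostly from KRT8 (76.4 to 398 CPM) and KRT18 (92.8 to 303 CPM). The epithelial markers EPCAM, KRT19 and CDH1 had at most 1.56, 1.75 and 0.744 CPM. Of 3 ovarian carcinoma markers 2 were tested (4.74 to 36.5 CPM). The leukocyte markers PTPRC, CD3E, CD68 and CD14, which mark other sources of these cytokines, summed to between 0 and 0.279 CPM, and 3 endothelial markers, 2 of them tested, to 0.559 to 2.02 CPM.

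IL11 was higher with siGGGGGC than in control cells at both time points. At 24 h its level was 18.2 and 20.4 CPM in the siNT1 libraries and 73.6 and 62.5 CPM in the siGGGGGC libraries. At 48 h it was 27.2 and 34.3 CPM with siNT1, 119 and 125 CPM with siGGGGGC, and 16.7 and 17.1 CPM with siGGCAGU. In both siGGGGGC groups each library was above each control library of its time, and with siGGCAGU each was below. The fitted level with siGGGGGC was 3.53-fold that of siNT1 at 24 h (log2 fold change 1.82, SE 0.12) and 3.97-fold at 48 h (1.99, SE 0.11). By rise with siGGGGGC, IL11 ranked 68th of 16905 genes at 24 h and 437th at 48 h. IL11 was chosen with its rise at 24 h known, so these ranks are not independent of that choice.

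LIF followed another order. Its level was 11.7 and 10.8 CPM with siNT1 and 9.44 and 7.21 CPM with siGGGGGC at 24 h. Control libraries at 48 h were at 12.3 and 11.2 CPM, against 22.0 and 21.9 CPM with siGGGGGC, and 38.3 and 40.2 CPM with siGGCAGU. Both siGGGGGC libraries were below the control at 24 h and above it at 48 h, and siGGCAGU gave the highest levels. Against siNT1, the log2 fold change was −0.44 (SE 0.13) for siGGGGGC at 24 h, 0.90 (SE 0.12) for siGGGGGC at 48 h and 1.74 (SE 0.11) for siGGCAGU. The 48 h comparisons with siNT1 share the control libraries, so their values are given side by side and are not independent.

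The siRNAs were also set against each other at 48 h, where the cytokine genes differed in opposite directions. IL11 was 7.22-fold higher with siGGGGGC than with siGGCAGU (log2 fold change 2.85, SE 0.12). LIF was 1.79-fold lower with siGGGGGC (−0.84, SE 0.11). In order of group means, IL11 went from siGGCAGU at 48 h (16.9 ± 0.345 CPM, SD, n = 2) through siNT1 at 24 h (19.3 ± 1.57) and 48 h (30.7 ± 4.98) to siGGGGGC at 24 h (68.0 ± 7.81) and 48 h (122 ± 4.46), with no overlap of neighbours. LIF went from siGGGGGC at 24 h (8.33 ± 1.58 CPM) through siNT1 at 24 h (11.2 ± 0.656) and 48 h (11.7 ± 0.838) to siGGGGGC (22.0 ± 0.103) and siGGCAGU (39.2 ± 1.35) at 48 h. Here the siNT1 groups overlapped.

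**Figure D1:**
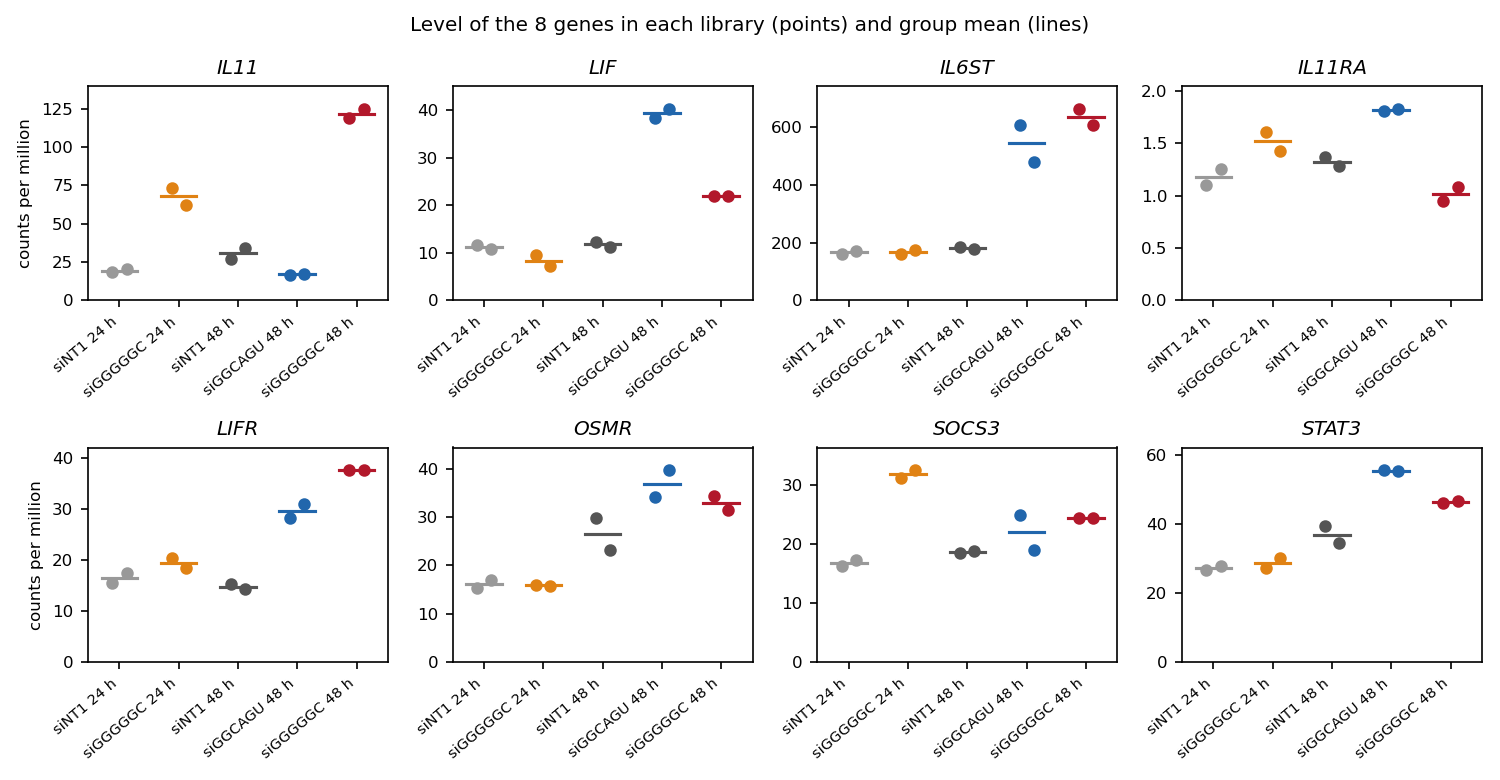
Level of each of the 8 genes in CPM (y axis, from 0, its own scale per gene) in the 10 libraries. Points are libraries and lines are the means of the 5 groups of 2. IL11 lies at 119 and 125 CPM with siGGGGGC at 48 h, LIF at 38.3 and 40.2 CPM with siGGCAGU, and IL6ST is high with both siRNAs at 48 h.

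IL6ST, the signal-transducing chain that all these cytokines share, rose with both siRNAs at 48 h, while its value with siGGGGGC at 24 h did not pass the test. Its level at 24 h was 160 and 172 CPM with siNT1 and 160 and 176 CPM with siGGGGGC. The 48 h levels were 186 and 178 CPM with siNT1, 663 and 608 CPM with siGGGGGC, and 607 and 480 CPM with siGGCAGU. The 24 h groups overlapped, and at 48 h every library of either siRNA was far above both controls. In the edgeR quasi-likelihood test over all genes, the rise at 48 h was 3.49-fold with siGGGGGC (log2 fold change 1.80, SE 0.11, adjusted p = 4.69e-09). It was 2.98-fold with siGGCAGU (1.58, SE 0.11, adjusted p = 1.43e-08). The direct difference between the siRNAs was 0.23 (95% confidence interval −0.01 to 0.46, adjusted p = 0.0914). This difference was 0.40 without siGGCAGU replicate 1 and 0.06 without siGGCAGU replicate 2. The log2 fold change of siGGGGGC against siNT1 grew by 1.78 from 24 h to 48 h (interaction, SE 0.16, adjusted p = 1.32e-06).

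LIFR, the ligand-binding receptor for LIF, rose with both siRNAs at 48 h and more with siGGGGGC. It stood at 15.5 and 17.4 CPM with siNT1 and 20.3 and 18.4 CPM with siGGGGGC at 24 h. At 48 h it stood at 15.2 and 14.2 CPM with siNT1, 37.5 and 37.5 CPM with siGGGGGC, and 28.2 and 30.9 CPM with siGGCAGU. No siRNA library overlapped with its control at either time. The log2 fold change was 0.24 at 24 h (adjusted p = 0.147), 1.35 with siGGGGGC at 48 h (SE 0.10, adjusted p = 2.8e-08) and 1.01 with siGGCAGU (SE 0.10, adjusted p = 5.43e-07). The direct difference was 0.34 (SE 0.10, adjusted p = 0.00793), and it was 0.33 with adjusted p = 0.0647 when libraries were scaled to total counts. The siGGGGGC effect was larger at 48 h than at 24 h by 1.11 (SE 0.15, adjusted p = 5.37e-05).

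OSMR, the receptor chain for oncostatin M, was higher in control cells at 48 h, after the medium change, than at 24 h. It was 15.3 and 16.9 CPM with siNT1 at 24 h, against 15.9 and 15.8 CPM with siGGGGGC. By 48 h its level was 29.9 and 23.2 CPM with siNT1, 34.5 and 31.6 CPM with siGGGGGC, and 34.1 and 39.7 CPM with siGGCAGU. The siRNA libraries at 48 h were all above the controls, whose replicates lay apart. OSMR in siNT1 cells was 1.65-fold higher at 48 h than at 24 h (log2 fold change 0.72, SE 0.13, adjusted p = 0.00236), which did not pass without siNT1 24 h replicate 1 (adjusted p = 0.0508). The rise was 0.48 with siGGCAGU (SE 0.12, adjusted p = 0.0029) and 0.32 with siGGGGGC (SE 0.12, adjusted p = 0.033). Under total counts the siGGCAGU rise was 0.32 with adjusted p = 0.146. The siGGGGGC rise was 0.14 without siNT1 48 h replicate 2 and 0.50 without replicate 1. It did not pass in DESeq2 (0.33, adjusted p = 0.0529), under total counts (0.15, adjusted p = 0.5) or without a filter (0.20, adjusted p = 0.274). Nor did it pass without RN7SL2 and SNORD3A (0.29, adjusted p = 0.0549) or in a fit of the compared groups only (0.31, adjusted p = 0.064). It passed with DESeq2 size factors, a filter on the mean count and the replicate block. Exons of OSMR share 229 bases with RICTOR on the opposite strand, and the strand setting of the counting was not stated.

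IL11RA, the receptor that IL11 needs, was the gene at the lowest level, with 22 to 64 counts per library. Its level was 1.10 and 1.26 CPM with siNT1 and 1.61 and 1.43 CPM with siGGGGGC at 24 h. The 48 h levels were 1.37 and 1.28 CPM with siNT1, 0.946 and 1.08 CPM with siGGGGGC, and 1.81 and 1.83 CPM with siGGCAGU. The siGGGGGC libraries were above the control at 24 h and below it at 48 h, and siGGCAGU was above it. None of these differences passed (log2 fold change 0.37, adjusted p = 0.385, then −0.38, adjusted p = 0.202, and 0.46, adjusted p = 0.0864). IL11RA was lower with siGGGGGC than with siGGCAGU by a log2 fold change of −0.85 (SE 0.24, adjusted p = 0.0085), with adjusted p = 0.0741 in DESeq2 and 0.0589 without siGGGGGC 48 h replicate 1. It shares 1706 exon bases with another annotated gene on its strand (ENSG00000258728, at 0 counts), so reads of those exons may be missing from its counts.

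SOCS3, the feedback inhibitor, rose with siGGGGGC at 24 h, where the other 5 tested genes did not pass. Its level then was 16.2 and 17.2 CPM with siNT1 and 31.2 and 32.4 CPM with siGGGGGC. At 48 h it was 18.4 and 18.7 CPM with siNT1, 24.3 and 24.4 CPM with siGGGGGC, and 24.8 and 19.0 CPM with siGGCAGU. The siGGCAGU replicates lay apart, with 1 of them close to the control. The rise with siGGGGGC was 1.90-fold at 24 h (log2 fold change 0.93, SE 0.12, adjusted p = 7.15e-05) and 1.31-fold at 48 h (0.39, SE 0.11, adjusted p = 0.00853). The 48 h value was 0.23 with adjusted p = 0.098 under total counts, and adjusted p = 0.0513 without siGGGGGC replicate 2. The effect was smaller at 48 h by −0.54 (interaction, SE 0.16, adjusted p = 0.0231), which reached adjusted p = 0.096 without siNT1 24 h replicate 1. With siGGCAGU the log2 fold change was 0.23 (adjusted p = 0.109). This value was 0.03 without siGGCAGU replicate 1 and 0.42 without siGGCAGU replicate 2. SOCS3 holds 2 ACTGCC words and none for siGGGGGC.

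STAT3, the transcription factor of the pathway, rose with both siRNAs at 48 h, with smaller log2 fold changes than IL6ST and LIFR. It was 26.7 and 27.7 CPM with siNT1 and 27.2 and 30.2 CPM with siGGGGGC at 24 h, with overlap. At 48 h it was 39.4 and 34.4 CPM with siNT1, 46.2 and 46.5 CPM with siGGGGGC, and 55.5 and 55.4 CPM with siGGCAGU. The siRNA groups at 48 h overlapped neither with the control nor with each other. The rise was 1.50-fold with siGGCAGU (log2 fold change 0.59, SE 0.09, adjusted p = 6.12e-05) and 1.26-fold with siGGGGGC (0.33, SE 0.09, adjusted p = 0.00667). The latter was 0.23 with adjusted p = 0.0865 without siNT1 48 h replicate 2, and 0.16 with adjusted p = 0.305 under total counts. In siNT1 cells STAT3 was higher at 48 h than at 24 h by 0.44 (SE 0.09, adjusted p = 0.00765), with adjusted p of up to 0.0911 when 1 control library was left out. The siRNAs differed by −0.26 (siGGGGGC minus siGGCAGU, adjusted p = 0.0268), with adjusted p = 0.0877 in DESeq2 and up to 0.111 without 1 library.

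**Figure D2:**
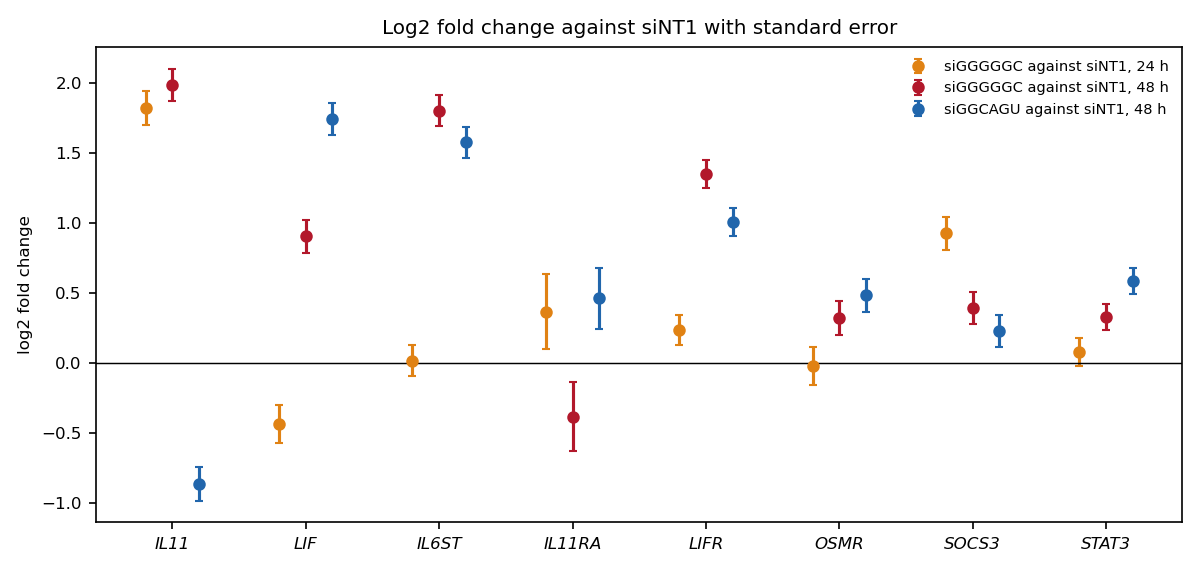
Log2 fold change against siNT1 (y axis) of each of the 8 genes, with standard errors from the fit as bars, for siGGGGGC at 24 h and 48 h and siGGCAGU at 48 h. IL6ST lies at 0.02, 1.80 and 1.58, and IL11 at 1.82, 1.99 and −0.86.

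Counted over the 6 tested genes, 1 rose, 0 fell and 5 did not pass with siGGGGGC at 24 h, where 10.6% of all genes tested rose and 8.32% fell. At 48 h with siGGGGGC, 5 rose, 0 fell and 1 (IL11RA) did not pass, against 27.8% and 27.5% of all genes. This count was 2 under total counts, where the median of all genes moved by −0.16, and 3 without siNT1 replicate 2 or siGGGGGC replicate 2. With siGGCAGU, 4 rose, 0 fell and 2 did not pass, against 27.8% and 24.9%. Between the siRNAs, 1 was higher and 2 were lower with siGGGGGC, against 26.7% and 27.6%, and this count was 1 in DESeq2 and ranged from 1 to 5 when 1 library was left out. From 24 h to 48 h in siNT1 cells, 2 rose and 0 fell, against 9.37% and 7.20%, and without siNT1 24 h replicate 1 the count was 0. In the interaction 2 were higher and 1 lower, against 13.4% and 15.2%.
The median log2 fold change of the 6 genes was 0.16 at 24 h, 0.36 with siGGGGGC at 48 h and 0.54 with siGGCAGU. The same median over all genes tested was 0.00, −0.01 and 0.02.

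Per kilobase of annotated exon, receptor and ligand levels can be set beside each other. In siNT1 cells at 48 h, IL6ST was at 15.1 ± 0.512 CPM per kb, IL11 at 11.5 ± 1.86, OSMR at 3.70 ± 0.658, LIF at 3.03 ± 0.216, LIFR at 1.21 ± 0.0575 and IL11RA at 0.252 ± 0.0124 (SD, n = 2). The shared chain was thus the most abundant of these receptors and IL11RA the least. With siGGGGGC at 48 h, IL11 reached 45.7 ± 1.66 CPM per kb beside IL6ST at 52.7 ± 3.23, while IL11RA was at 0.192 ± 0.0174. With siGGCAGU, LIF reached 10.1 ± 0.349 CPM per kb beside LIFR at 2.43 ± 0.158 and IL6ST at 45.0 ± 7.45.

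**Figure D3:**
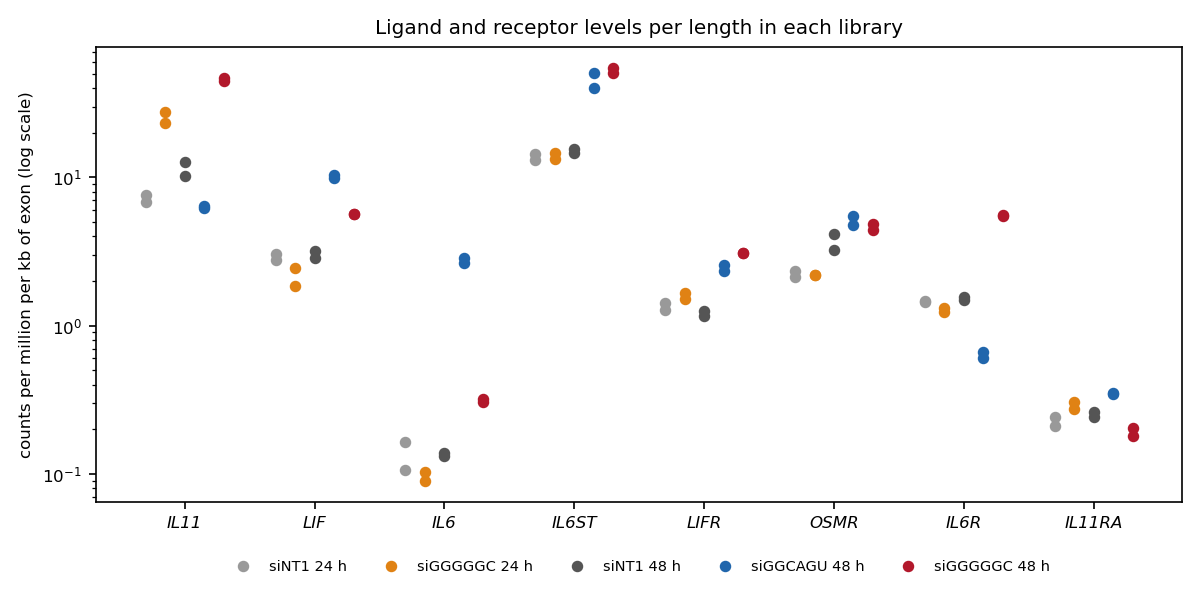
Level in CPM per kb of exon (y axis, log scale) of ligand and receptor genes in each library, with a point per library and a color per group. IL6R and IL6 are shown for comparison. IL11RA lies between 0.18 and 0.349 CPM per kb in the 10 libraries, and IL6ST between 13.2 and 55.0.

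A list of 62 other genes of the pathway was assembled with results of these data known. Of these, 48 were tested and 14 were too low, among them OSM, the gene of oncostatin M (at most 4 counts), and CNTFR (0 counts), both named after their values were seen. With siGGGGGC 11 rose and 4 fell at 24 h, and 24 rose and 15 fell at 48 h. With siGGCAGU 18 rose and 10 fell. Over all genes tested, 10.6% rose and 8.32% fell with siGGGGGC at 24 h, 27.8% and 27.5% at 48 h, and 27.8% and 24.9% with siGGCAGU. These shares are the background for every count of the groups within the list. Medians over the 48 genes were 0.05, 0.28 and 0.13 on the log2 scale, against 0.00, −0.01 and 0.02 over all genes.

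Among the other ligands, IL6, the founding cytokine of the family, was nearly silent in control cells. Its level at 48 h was 0.566 and 0.595 CPM with siNT1, 1.38 and 1.32 CPM with siGGGGGC, and 12.4 and 11.5 CPM with siGGCAGU. The siGGCAGU libraries were far above all others. IL6 rose with siGGCAGU by 4.34 on the log2 scale (SE 0.19, adjusted p = 1.08e-10) and with siGGGGGC by 1.20 (SE 0.25, adjusted p = 0.000899). The direct difference, siGGGGGC minus siGGCAGU, was −3.14 (adjusted p = 1.65e-09). CTF1, the gene of cardiotrophin 1, rose by 1.35 with siGGCAGU and fell by 1.51 with siGGGGGC. These calls rest on 2 to 28 counts per library, and leaving out 1 library took their adjusted p to 0.0727 and 0.218.

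Of 3 tested receptor genes, 2 rose and 1 fell with siGGGGGC at 48 h, and 0 rose and 1 fell with siGGCAGU, against 27.8% and 27.5%, and 27.8% and 24.9%, of all genes. IL6R, the IL6-binding receptor, moved in opposite directions with the siRNAs. Its level at 48 h was 11.0 and 10.3 CPM with siNT1, 38.4 and 38.9 CPM with siGGGGGC, and 4.63 and 4.24 CPM with siGGCAGU, so the 3 groups were apart. It rose with siGGGGGC by 1.86 on the log2 scale (SE 0.10, adjusted p = 8.62e-10) and fell with siGGCAGU by 1.27 (SE 0.12, adjusted p = 2.01e-07). The direct difference was 3.13 (adjusted p = 1.71e-11). IL31RA, a related receptor gene, rose with siGGGGGC by 1.18 (adjusted p = 1.14e-06) and had 0.26 with siGGCAGU (adjusted p = 0.105). The 3′UTR of IL6R holds 3 ACTGCC words and that of IL31RA 4, and both hold 0 GCCCCC words.

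Of 6 tested genes of JAK kinases and STATs, 1 rose and 3 fell with siGGGGGC at 48 h (27.8% and 27.5% of all genes), and 2 rose and 1 fell with siGGCAGU (27.8% and 24.9%). STAT5A fell by 1.71 with siGGGGGC and STAT5B by 0.73, while with siGGCAGU STAT5B fell by 1.19. Of 7 tested negative regulators, 3 rose and 4 fell with siGGGGGC at 48 h and 0 rose and 1 fell with siGGCAGU, beside the same shares. PTPN6, a phosphatase gene, rose with siGGGGGC by 2.44 from a level of 0.238 and 0.287 CPM, and PIAS3 fell by 1.04.

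Of 24 genes known as STAT3 targets, 8 were too low to be tested in these cells, among them the acute phase genes SERPINA3, FGB, FGG, LBP, CRP and HP with at most 3 counts per library. Of the 16 tested, 8 rose and 2 fell with siGGGGGC at 24 h, against 10.6% and 8.32% of all genes. At 48 h 12 rose and 3 fell with siGGGGGC, against 27.8% and 27.5%, and 9 rose and 3 fell with siGGCAGU, against 27.8% and 24.9%. FOS, a subunit of AP-1, was at 2.24 and 2.23 CPM with siNT1 at 48 h, 33.6 and 34.4 CPM with siGGGGGC, and 2.26 and 2.46 CPM with siGGCAGU. Its rise with siGGGGGC was 3.93 on the log2 scale (SE 0.12, adjusted p = 5.31e-12), and with siGGCAGU the value was 0.09 (adjusted p = 0.637). JUNB, another AP-1 gene, rose by 1.11 at 24 h, by 2.43 at 48 h and by 1.43 with siGGCAGU. The kinase gene PIM1 rose by 0.88 and 1.65 with siGGGGGC and had −0.30 with siGGCAGU (adjusted p = 0.0852).

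CEBPB, CEBPD and IRF1, genes of transcription factors of the acute phase and interferon responses, rose with both siRNAs at 48 h. Their log2 fold changes were 1.45, 2.06 and 1.10 with siGGGGGC and 1.26, 1.42 and 0.93 with siGGCAGU. VEGFA, the angiogenic growth factor gene, rose by 2.47 with siGGGGGC and 0.66 with siGGCAGU. BCL3 rose by 2.37 and 1.44 at 2 to 22 counts per library. The siGGCAGU call was lost in DESeq2 (1.44, adjusted p = 0.124) and depended on more than 1 library. BCL6 fell by 1.15 with siGGGGGC at 24 h (adjusted p = 0.0605 without siGGGGGC 24 h replicate 1) and rose by 0.82 at 48 h.

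The 3 STAT3 targets that fell with siGGCAGU were MYC, CCND1 and BIRC5. MYC, a transcription factor gene, fell by 0.59 with siGGGGGC at 24 h, by 1.47 at 48 h and by 1.79 with siGGCAGU. The cyclin gene CCND1 rose by 0.36 and then fell by 0.31 with siGGGGGC, and fell by 2.08 with siGGCAGU. BIRC5, the gene of survivin, rose by 0.59 and 0.27 with siGGGGGC and fell by 2.06 with siGGCAGU. In the direct comparison CCND1 and BIRC5 were higher with siGGGGGC by 1.77 and 2.33 (adjusted p = 1.17e-09 and 4.15e-11).

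**Figure D4:**
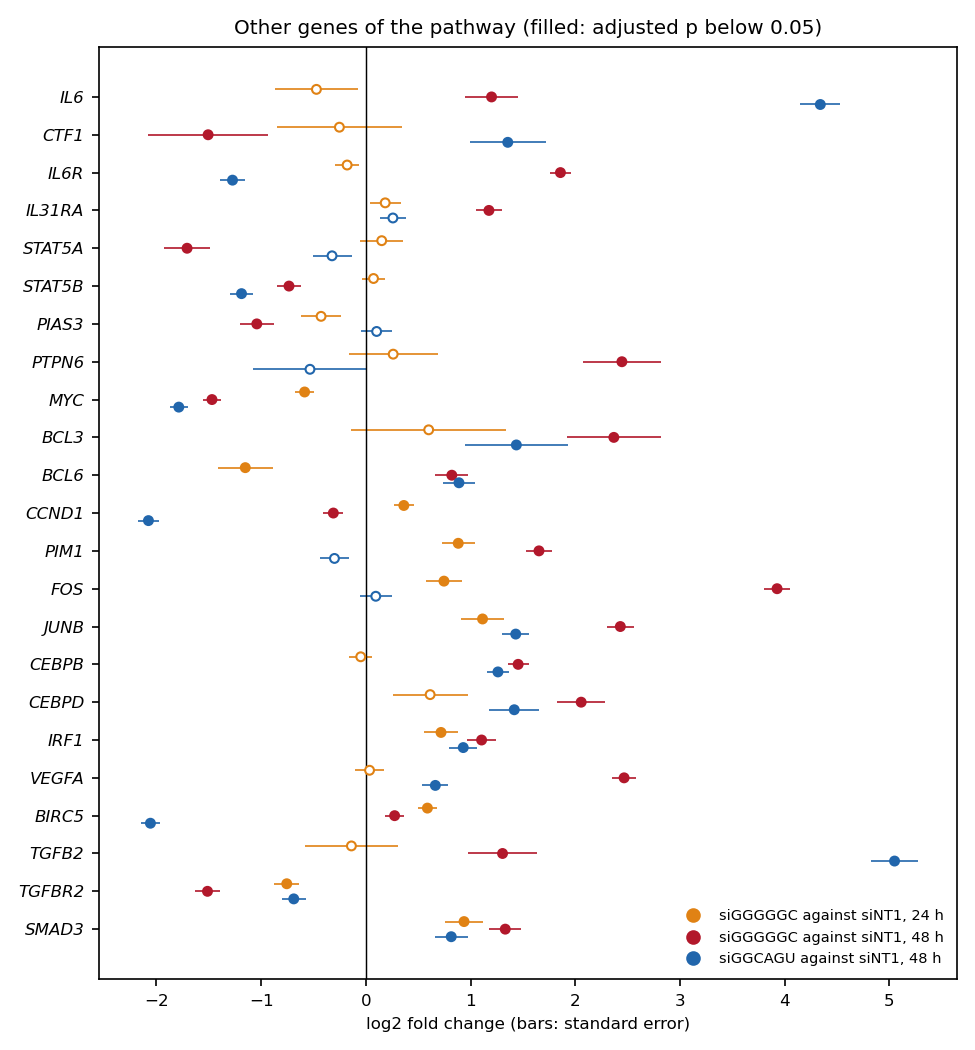
Log2 fold change against siNT1 (x axis, bars are standard errors) of 23 other genes of the pathway in the 3 comparisons. Filled points passed an adjusted p of 0.05. IL6 and TGFB2 lie farthest right with siGGCAGU at 4.34 and 5.05, and FOS lies farthest right with siGGGGGC at 3.93.

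The genes whose levels over the 10 libraries were most like those of IL11 and LIF were found by Pearson's r on log2 CPM among 9978 genes with a mean normalised count of at least 100. For IL11 they were RNF145 (r = 0.995), FUT11 (0.991), PCYOX1L (0.981), PDE4D (0.976) and CCND3 (0.976). For LIF they were AGFG1 (0.983), ZNF117 (0.983), ASPH (0.980), IFNGR1 (0.979) and SLFN5 (0.978). Among the 8 genes, LIF was most like STAT3 (r = 0.914), IL6ST (0.875) and OSMR (0.865), and IL11 most like SOCS3 (0.641). IL11 and LIF had r = −0.20. The 10 libraries fall into 5 groups and share scaling, so r describes the pattern over groups. It does not compare the size of the change. IL11 ran from 16.7 to 125 CPM and RNF145 from 54.6 to 84.7 CPM. LIF ran from 7.21 to 40.2 CPM and AGFG1 from 56.4 to 113 CPM.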

How the data were processed

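RNA-seq of total RNA after depletion of ribosomal RNA was analysed for 10 libraries. The authors trimmed reads with Trimmomatic, aligned them to hg38 and counted exonic reads per Ensembl gene with HTSeq. Their methods name TopHat or STAR as the aligner, and the sample records of these libraries name TopHat. The deposited files hold these raw counts, with 0 entries that name no gene. The authors' 4 tables of comparisons (fold changes and p-values) were not used. Counts were filtered with filterByExpr, scaled by TMM and tested with the quasi-likelihood test of edgeR 4.0.16 in a fit of all 10 libraries and 5 groups (5 residual degrees of freedom), with Benjamini-Hochberg adjustment over 16905 genes. A gene passed at an adjusted p below 0.05. Alternatives were another scaling, filter, sample set, replicate block, DESeq2 1.42.0 and each library left out. Gene models were GENCODE on hg38. The script was tested on simulated data.

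The 8 genes and all lists were chosen with earlier results of these data known. Other pathway genes were named where they passed with an absolute log2 fold change above 1 against siNT1, and some of them and 1 seed site are not reported here. No pair of libraries agreed within counting noise. Replicates of the same number did not deviate together, with correlations of −0.293 to 0.115 between groups.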

Additional observations from a re-analysis of the deposited data

Results flagged for a closer look

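The effect of siGGGGGC against siNT1 differed between 24 h and 48 h for 19 of the named genes, by the interaction term of the edgeR fit. These 19 were drawn from the 6 tested genes and 23 other genes of the pathway. The 23 were named for passing against siNT1 in these libraries with an absolute log2 fold change above 1. That choice favours a change with time, so the count is not independent of it. Over all genes tested, 13.4% had a higher and 15.2% a lower effect at 48 h. Of the 48 tested genes of the whole pathway list, 14 were higher and 10 lower. The differences below are log2 fold changes at 48 h minus 24 h. Among the 6 tested genes they were 1.78 for IL6ST, 1.11 for LIFR and −0.54 for SOCS3. Of the other receptors and ligands, IL6R (2.04), IL6 (1.67) and IL31RA (0.99) gained. PTPN6 (2.19), BCL6 (1.97), PIM1 (0.77), FOS (3.18), JUNB (1.32), CEBPB (1.50), CEBPD (1.44) and VEGFA (2.43) also gained. STAT5A (−1.86), STAT5B (−0.81), MYC (−0.88), CCND1 (−0.67) and TGFBR2 (−0.76) had lower effects at 48 h. With 1 library left out, the interaction ranged from 1.33 to 1.95 for IL6, 1.22 to 1.62 for CEBPD and 1.56 to 2.57 for PTPN6. For SOCS3 it ranged from −0.60 to −0.50. The calls for IL6, CEBPD and SOCS3 each depended on more than 1 library, and the call for PTPN6 on siNT1 24 h replicate 1.

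LIF was below siNT1 in both siGGGGGC libraries at 24 h and above it in both at 48 h, a difference of 1.34 on the log2 scale that was not tested.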

How the results depend on the processing

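Wells of a single cell line in groups of 2 limit precision, and leaving 1 out leaves a lone library that is assumed to vary like the other groups. Of the 6 tested genes, the number that passed with siGGGGGC at 48 h (5) was 2 under total counts, 2 without a filter, and 3 to 5 with 1 library left out. Between the siRNAs (3) it was 1 in DESeq2 and 1 to 5 with 1 library left out. In siNT1 over time (2) it was 4 under total counts and 0 to 2 with 1 library left out. The pathway count in siNT1 over time (15) was 3 to 18, with 3 and 4 without siNT1 24 h replicate 1 and 2 and 7 without siNT1 48 h replicate 1. The other counts stayed within 1.5 times. Reversed values were all near 0. Under total counts, IL6ST (−0.076) and STAT3 (−0.016) turned with siGGGGGC at 24 h and LIFR (0.083) in siNT1 over time. With 1 library left out, IL6ST (−0.046 to 0.096) and OSMR (−0.090 to 0.065) turned at 24 h, SOCS3 (−0.033 to 0.36) between the siRNAs and IL11 (−0.00017 to 0.33) in the interaction. DESeq2 gave no adjusted p for IL11RA in siNT1 over time and for PTPN6 in the interaction, which are left out. The cause was not tested.

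Total counts moved the median of all genes by −0.16, −0.15 and 0.24 for siGGGGGC at 48 h, siGGCAGU and siNT1 over time. The share of calls that were higher went from 56.1% to 35.5% with siGGGGGC at 24 h, 50.3% to 37.7% at 48 h, 52.8% to 40.6% with siGGCAGU and 56.6% to 93.8% in siNT1. Without a filter it was 76.9% in siNT1 over time and 32.3% in the interaction (46.9% in the main analysis), with median shifts of −0.12 for siGGGGGC at 48 h and −0.13 in the interaction. Fitting only the compared groups called 5105 genes at 24 h, against 3203. Leaving out 1 library called 1471 to 1743 genes there when it was siNT1 24 h replicate 1 or 2 or siGGGGGC 24 h replicate 1 or 2. In siNT1 over time it called 546 without siNT1 24 h replicate 1, 470 without replicate 2 and 752 without siNT1 48 h replicate 1, against 2801.

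With the replicate number as a block, the 6 tested genes gave counts of 1, 5, 4, 3, 2 and 3 in the 6 comparisons, and the pathway list 15, 38, 28, 34, 14 and 24, all within 1.5 times. At 48 h, crossing the numbers, chosen after seeing the data, gave 5 and 4 of the 6 genes and 39 and 25 of the pathway list against siNT1.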

Other observations

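Genes of the TGF-beta pathway were measured as well. TGFB2, the gene of a TGF-beta ligand, was at 0.238 and 0.419 CPM with siNT1 at 48 h, 0.860 and 0.837 CPM with siGGGGGC, and 11.5 and 11.3 CPM with siGGCAGU. It rose by 5.05 on the log2 scale with siGGCAGU (SE 0.22, adjusted p = 1.09e-10) and by 1.30 with siGGGGGC (SE 0.33, adjusted p = 0.00333). TGFB1, the gene of another TGF-beta ligand and named after its values were seen, rose with siGGGGGC by 0.89 at 24 h (adjusted p = 0.0137) and by 0.96 at 48 h (adjusted p = 0.000642), and had −0.09 with siGGCAGU (adjusted p = 0.737).

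TGFBR2, a receptor gene of the pathway, was at 132 and 97.6 CPM with siNT1 at 48 h, 40.3 and 40.1 CPM with siGGGGGC, and 68.6 and 73.7 CPM with siGGCAGU. It fell by 1.51 with siGGGGGC and by 0.69 with siGGCAGU. SMAD3, a signal transducer, rose by 1.33 with siGGGGGC and by 0.81 with siGGCAGU.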
